A study of Rattus norvegicus with 9 samples.

Results

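The 8 genes described here encode enzymes of cholesterol synthesis: Hmgcs1, Idi1, Fdps, Fdft1, Sqle, Lss, Cyp51 and Dhcr7. They were taken by symbol from a table of read counts for 30446 rat genes, in which each symbol occurs once, and all 8 were among the 16627 genes with enough counts to be tested. The RNA was that of whole dorsal root ganglia (DRG), which hold sensory neurons, satellite glia and Schwann cells, and the rats were male Sprague-Dawley. There were 3 groups of 3 libraries each: SCI, from rats with a spinal cord injury, sham, from rats with a sham operation, and naive, from unoperated rats. All libraries carry the label of 30 days after injury, the naive ones included, and hold the ganglia T12 to L6 of both sides. The labels do not say how many animals went into a library, so p-values measure only the spread between these libraries, which may be technical.

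Cells build cholesterol from acetyl-CoA. The mevalonate part of the pathway makes isoprenoid units, joins them to farnesyl diphosphate, and also serves protein prenylation and other branches. The sterol part starts with squalene, closes the ring to lanosterol and trims it to cholesterol. The transcription factor encoded by Srebf2 is known to switch on most of these enzymes together when membrane sterol is low. Peripheral nerve tissue is known to make much of its own cholesterol, because Schwann cells need it for myelin, and neurons use it for axonal membrane. These data are from whole ganglia, in which fewer cells of a type and less RNA per cell cannot be told apart.

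The promoters of Hmgcs1, Idi1 and Fdps are shown because the first pair lay far below naive in both operated groups while Fdps lay above it. The sequences are the 250 bases before the RefSeq gene start in build GRCr8, each on the gene's own strand, and capitals mark CCAAT boxes, the binding motif of NF-Y, on either strand (ATTGG is the box on the other strand). Hmgcs1 is on the plus strand at chr2:53382054-53382303, Idi1 on the minus strand at chr17:66547525-66547774 and Fdps on the minus strand at chr2:176804817-176805066.
Hmgcs1: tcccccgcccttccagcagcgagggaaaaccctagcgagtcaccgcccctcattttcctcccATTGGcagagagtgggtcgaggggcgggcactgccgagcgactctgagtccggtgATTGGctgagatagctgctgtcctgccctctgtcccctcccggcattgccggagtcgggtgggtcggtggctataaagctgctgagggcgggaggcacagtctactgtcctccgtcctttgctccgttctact
Idi1: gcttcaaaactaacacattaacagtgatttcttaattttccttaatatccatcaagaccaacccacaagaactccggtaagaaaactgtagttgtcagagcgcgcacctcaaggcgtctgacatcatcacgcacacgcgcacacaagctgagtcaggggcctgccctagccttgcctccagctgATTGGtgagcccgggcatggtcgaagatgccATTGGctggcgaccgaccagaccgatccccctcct
Fdps: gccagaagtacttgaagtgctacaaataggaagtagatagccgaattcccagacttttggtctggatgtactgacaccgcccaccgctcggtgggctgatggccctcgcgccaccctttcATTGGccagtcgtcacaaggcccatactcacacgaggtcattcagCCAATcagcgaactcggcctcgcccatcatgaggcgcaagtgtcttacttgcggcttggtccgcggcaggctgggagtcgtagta

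Each of the 3 windows held 2 CCAAT boxes, and whether the boxes have a part in the direction of change was not tested. Of the 8 enzymes, 6 had a window in the table, and 4 of those 6 held a box, the fourth being Lss. Cyp51 and Dhcr7, both lower than naive, held 0. Among 14 further enzymes of the pathway 11 had a window and 10 of the 11 held a box, against 34% of all 33465 windows of the same length. The Sp1 box GGGCGG occurred in 5 of 6 and 9 of 11 windows, against 30.5% of all windows. The sterol regulatory element form TCACNCCAC and its looser form TCACNCNAC, whose matches include those of the first, were in 0 of 6 and 0 of 11 windows, against 0.974% and 2.08% of all windows. These forms are so rare over all windows that 0 matches in so few do not show a lack of sterol regulatory elements. Other spellings of the element were not searched. Both strands were searched for every motif, and a match is a description of the letters only.

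Library totals ran from 16724878 to 32060538 counts, and the 8 enzymes had between 1104 counts (Dhcr7 in sham 2) and 43361 counts (Hmgcs1 in naive 2) per library. Levels are given in CPM, counts scaled to a common library size. On the first principal component of all tested genes, which held 59.3% of the variance, SCI and sham libraries scored from -25.7 to -14.2 and naive libraries from 41.6 to 43.5. The labels give no batch, and whether the naive libraries were made separately cannot be told apart from what the operations did. All 14 listed neuron markers and all 18 genes of Schwann cell myelin had enough counts to be tested.

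The comparison of SCI with sham asked what cord injury changed beyond the operation. None of the 8 enzymes differed detectably between the groups. The edgeR quasi-likelihood test called 0 of 8 at an adjusted p under 0.05, and 0 of 16627 genes over the whole table (0%). DESeq2 called 8 genes over the whole table and 0 of the 8 enzymes, and in edgeR 526 genes (3.16%) but 0 of the 8 had an unadjusted p under 0.05. The libraries of both groups overlapped for all 8, while 3.11% of all genes tested lay lower in every SCI library than in any sham library and 3.30% lay higher. Of the skeletal muscle markers 0 of 13 passed the test, although all 13 had lower values in every SCI library than in any sham library, with sums of 71.4 to 111 CPM in SCI and 150.5 to 174 CPM in sham.

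Hmgcs1 makes HMG-CoA, the substrate from which mevalonate is formed. Its level was 917, 847 and 836 CPM in SCI libraries 1 to 3, against 836, 926 and 853 CPM in sham libraries 1 to 3. The groups covered nearly the same range, and the SCI mean differed from the sham mean by -0.570%, with a 95% interval from -10.9% to 10.9%. Fdps, farnesyl diphosphate synthase, had the log2 change farthest from 0 of the 8, at -0.09 (SE 0.07). It stood at 565, 583 and 632 CPM in SCI and 666, 625 and 607 CPM in sham, a difference of -6.25% with an interval from -15.7% to 4.24%.

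The intervals of the other members were of similar width. That of Idi1 ran from -15.4% to 9.05%, that of Sqle from -9.82% to 12.8% and that of Dhcr7, the narrowest, from -8.58% to 8.48%. The median log2 change of the 8 was -0.02, against -0.00078 over all genes tested. These intervals are unadjusted and bound each difference singly. They are not the limits of what the adjusted test could detect with 3 libraries per group.

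**Figure D1:**
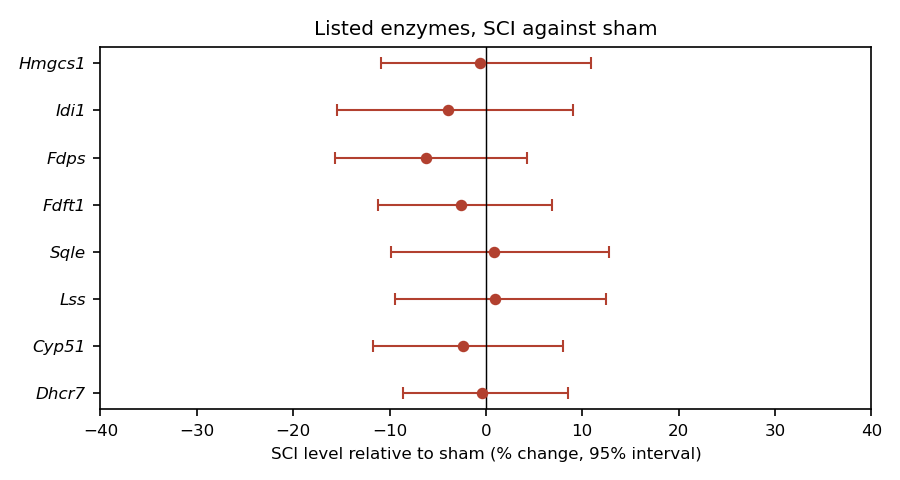
Difference of SCI from sham for each of the 8 enzymes, as % change of the fitted level, with the 95% interval of edgeR's fit. All intervals include 0, and the outer bounds are -15.7% for Fdps and 12.8% for Sqle.

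The sham libraries spread more widely than the others for most of the enzymes. The coefficient of variation, the SD as a share of the mean, ran from 0.784% to 6.29% in SCI, from 3.44% to 13.7% in sham and from 0.244% to 2.62% in naive. Idi1 had its highest sham level in sham 2, at 136 CPM, against 108 and 109 CPM in sham 1 and sham 3. Sqle, which oxidises squalene, had its lowest sham level in sham 3, at 189 CPM, against 230 and 226 CPM in sham 1 and sham 2. In sham 2, 6 of the 8 enzymes lay above their group mean, and in sham 3 1 of 8 did. The same libraries differed in cell markers: summed neuron markers stood at 46167, 35946 and 31377 CPM in sham 1 to 3, and summed satellite glia markers at 9812, 10268 and 12994 CPM. Whether these have a part in the spread of the enzymes was not tested.

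Set against naive ganglia, SCI ganglia had been through both the operation and the cord injury. Of the 8 enzymes, 5 fell and 1 rose, where 24.6% of all genes tested were called lower and 23.9% higher (48.5% in either direction). Hmgcs1 and Idi1, which act early in the pathway, had the lowest log2 changes of the 8, and Fdps, the step after Idi1, rose. From squalene onward all 5 members had log2 changes between -0.31 and -0.15, and 3 of these 5 passed the test. For all 8 the SCI and naive libraries did not overlap, 7 below naive and 1 above, where 31.9% and 32.2% of all genes tested did so.

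Hmgcs1 stood at 917, 847 and 836 CPM in SCI libraries 1 to 3, against 1367, 1365 and 1334 CPM in naive libraries 1 to 3. Every SCI library lay far below every naive one, and the level fell by 0.65 on the log2 scale (SE 0.07, edgeR adjusted p = 1.61e-05). Idi1, which interconverts the 2 isoprenoid units, had 119, 108 and 112 CPM in SCI and 184, 184 and 179 CPM in naive. Its log2 change was -0.69 (SE 0.08, edgeR adjusted p = 2.78e-05), the lowest of the 8.

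Fdps joins those units to farnesyl diphosphate, the branch point to sterols, dolichol and prenyl groups. It had 565, 583 and 632 CPM in SCI and 508, 531 and 507 CPM in naive. All 3 SCI libraries lay above all 3 naive ones, and the log2 change was 0.20 (SE 0.07, edgeR adjusted p = 0.0307). This call was lost without SCI 2 or SCI 3, without any 1 naive library and with the replicate number as a block, at adjusted p from 0.0598 to 0.153 and a log2 change from 0.15 to 0.22.

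The ratio of 2 genes' counts within a library needs no scaling between libraries, and it showed the same split. Hmgcs1 to Fdps stood at 1.62, 1.45 and 1.32 in SCI, at 1.26, 1.48 and 1.41 in sham and at 2.69, 2.57 and 2.63 in naive. The SCI mean was 0.558 times and the sham mean 0.525 times the naive mean, with no overlap between naive and either operated group. Idi1 to Fdps also lay apart from naive, with means of 0.191 ± 0.0171 in SCI, 0.187 ± 0.0288 in sham and 0.354 ± 0.00758 in naive (SD, n = 3 each). A ratio shows unequal change of the pair, not which gene of it moved.

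Farnesyl diphosphate is turned into squalene by Fdft1, the first step that serves sterols alone. Fdft1 stood at 256, 251 and 270 CPM in SCI and 284, 293 and 287 CPM in naive, close to but below naive in every library. Its log2 change of -0.15 (SE 0.06, edgeR adjusted p = 0.0545) did not pass. It was called in 6 of 17 alternatives, which were DESeq2, limma-voom, a stricter filter on low levels, a fit on SCI and naive alone and the fits without sham 1 or sham 3, at adjusted p from 0.0035 to 0.0474 and a log2 change of -0.17 to -0.15.

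Sqle, squalene epoxidase, stood at 215, 217 and 219 CPM in SCI and 265, 265 and 264 CPM in naive. Both groups were tight, and the level fell by 0.28 on the log2 scale (SE 0.07, edgeR adjusted p = 0.00663). Lss, which closes squalene epoxide to lanosterol, had 81.5, 74.6 and 72.4 CPM in SCI and 85.5, 86.2 and 86.9 CPM in naive. SCI 1 came near the naive range, and the log2 change of -0.18 (SE 0.07, edgeR adjusted p = 0.0570) did not pass, but did in 6 of 17 alternatives: without SCI 1 (-0.23, adjusted p = 0.0344), without any 1 sham library (0.0184 to 0.0496), with the stricter filter (0.0344) and in a fit on SCI and naive alone (0.00576).

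Cyp51 removes a methyl group from lanosterol, and Dhcr7 reduces the last precursor to cholesterol. Cyp51 had 390, 383 and 369 CPM in SCI and 485, 467 and 461 CPM in naive, a log2 change of -0.31 (SE 0.07, edgeR adjusted p = 0.00212). Dhcr7 had 63.2, 64.4 and 63.6 CPM in SCI and 72.4, 73.8 and 73.6 CPM in naive, a log2 change of -0.20 (SE 0.06, edgeR adjusted p = 0.00985). Both were below naive in all 3 SCI libraries by more than the spread within either group. The median log2 change of the 8 enzymes was -0.24, against 0.011 over all genes tested.

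**Figure D2:**
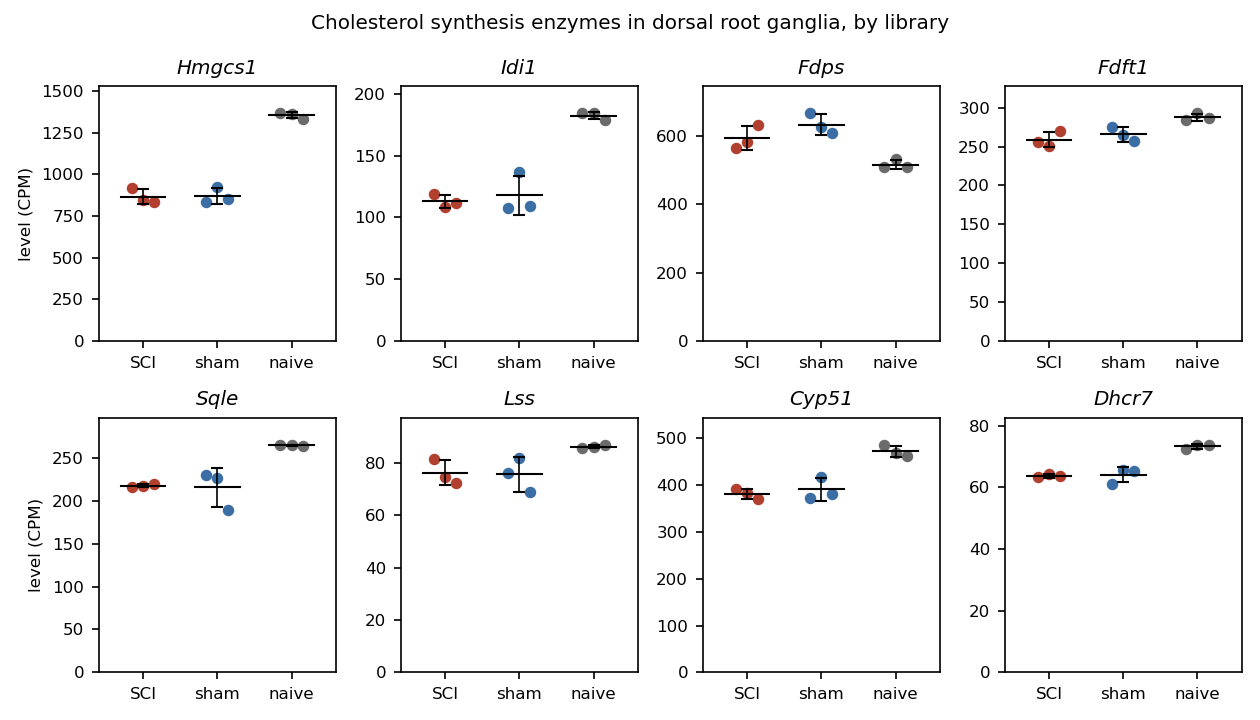
Level in CPM (axis from 0) of each enzyme in the 3 SCI, 3 sham and 3 naive libraries, as points, with the group mean as a line and 1 SD as a bar. SCI and sham points share a range, while naive points lie above them for 7 enzymes and below them for Fdps.

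The comparison of sham with naive used the same naive libraries, so it does not stand apart from the one above. It called 6 of the 8 enzymes lower and 1 higher, where 25.9% of all genes tested were called lower and 24.7% higher (50.6% in either direction). In every sham library 7 of the 8 lay below all naive libraries and 1 lay above them, where 29.2% and 27.5% of all genes tested did so. Hmgcs1 averaged 872 ± 47.7 CPM in sham and 1355 ± 18.8 CPM in naive (SD, n = 3 each), a log2 change of -0.64 (SE 0.07, edgeR adjusted p = 1.41e-05). Idi1 averaged 118 ± 16.1 CPM in sham and 182 ± 2.95 CPM in naive, a log2 change of -0.63 (SE 0.08). Fdps rose to 632 ± 30.2 CPM in sham, against 516 ± 13.2 CPM in naive. Its log2 change of 0.30 (SE 0.07) had an edgeR adjusted p of 0.00365, and it was called under all 17 alternative settings. The enzymes that had led the difference from naive in SCI did so in sham as well.

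Among the sterol steps, Sqle, Cyp51 and Dhcr7 fell by 0.30, 0.27 and 0.20 on the log2 scale in sham, with edgeR adjusted p of 0.00489, 0.00427 and 0.0113. Fdft1 had 275, 265 and 257 CPM in sham and 284, 293 and 287 CPM in naive, and its log2 change of -0.12 (SE 0.06, edgeR adjusted p = 0.137) did not pass, though it did without sham 1 (-0.15, adjusted p = 0.0416) and with the stricter filter (-0.14, adjusted p = 0.0478). Lss fell to 76.1, 81.9 and 68.8 CPM in sham, against 85.5, 86.2 and 86.9 CPM in naive. Its log2 change of -0.19 (SE 0.07) had an edgeR adjusted p of 0.0417, just inside the threshold. That call was lost in DESeq2 (adjusted p = 0.0616), with RLE or upper-quartile scaling (0.0504 and 0.0648), without a filter (0.0553), in a fit on sham and naive alone (0.0753), and without SCI 2, SCI 3, sham 3 or any 1 naive library (0.0539 to 0.132, at a log2 change of -0.19 to -0.12). The median log2 change of the 8 was -0.23, against 0.00048 over all genes tested.

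The other 14 enzymes of the pathway also held genes called in both directions. Between SCI and naive 8 fell, 3 rose and 3 did not pass, and the counts between sham and naive were 8, 3 and 3 as well. Over all genes tested 24.6% were called lower and 23.9% higher in SCI, and 25.9% and 24.7% in sham. The median log2 change of the 14 was -0.20 in both comparisons. The 3 that rose are consecutive steps: Mvk and Pmvk, the kinases that phosphorylate mevalonate, and Mvd, the decarboxylase that turns the product into the first isoprenoid unit. Pmvk had 127 ± 2.87 CPM in SCI, 132 ± 8.79 CPM in sham and 84.9 ± 3.94 CPM in naive (SD, n = 3 each). Its log2 changes from naive were 0.58 in SCI (edgeR adjusted p = 1.58e-05) and 0.63 in sham (6.55e-06).

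Taking these enzymes in the order of the pathway, Hmgcs1 lay below naive, Mvk, Pmvk and Mvd above it, Idi1 below it and Fdps above it. The later steps that passed were all below naive.

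Those later steps included Msmo1, the sterol methyl oxidase, at log2 changes from naive of -0.49 in SCI and -0.47 in sham, and Hsd17b7, a sterol reductase, at -0.67 in both. Sc5d, the sterol desaturase, stood at -0.37 and -0.38. Ggps1, which makes geranylgeranyl diphosphate on a side branch, stood at -0.46 and -0.41. Tm7sf2 and Acat2 did not pass in either comparison, though Acat2 did in sham without sham 3 (log2 change 0.24, adjusted p = 0.00480). The SCI calls of Ebp (log2 change -0.19), Lbr (-0.39) and Nsdhl (-0.22) were lost in fits that left out 1 library: for Ebp without SCI 1, SCI 2 or any 1 naive library, at adjusted p of up to 0.129, for Lbr without SCI 2 or naive 1 (0.0508 and 0.0714), and for Nsdhl without naive 2 (0.0654). In sham, Nsdhl (-0.17) was lost without any 1 library other than sham 2, at adjusted p from 0.0596 to 0.165.

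**Figure D3:**
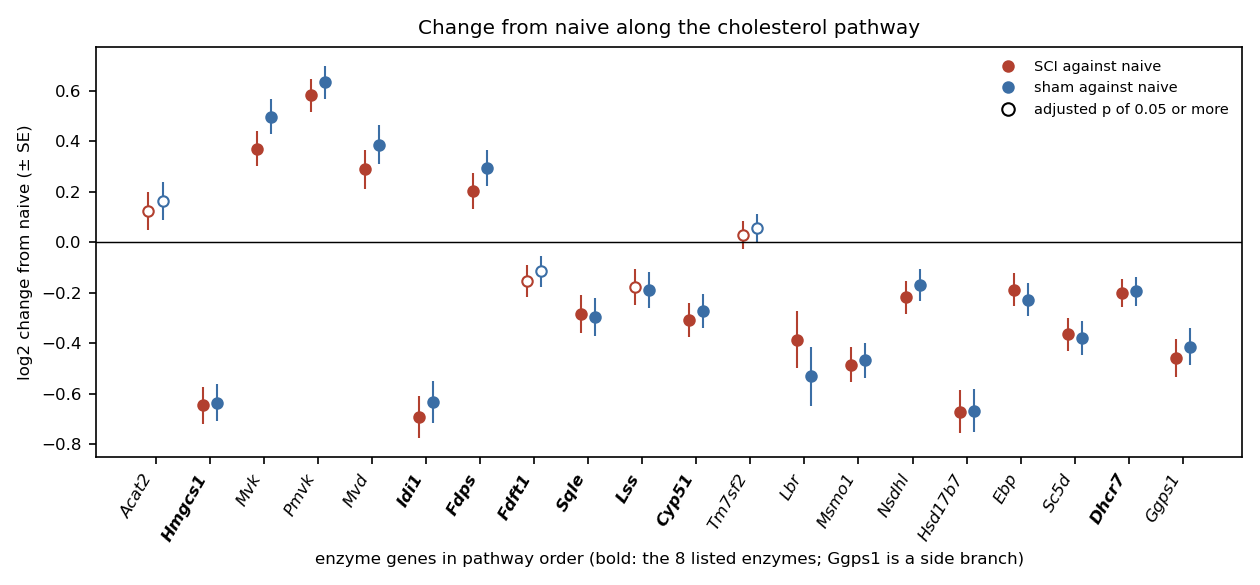
Log2 change from naive in SCI and in sham, with its SE, for the 8 listed enzymes (bold) and 12 of the 14 others, in the order of the pathway. Filled points passed edgeR's test at an adjusted p under 0.05; Hmgcs1 and Idi1 lie between -0.69 and -0.63, and Mvk, Pmvk, Mvd and Fdps between 0.20 and 0.63.

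Among 13 genes that control the pathway or take up sterol, 4 fell, 2 rose and 7 did not pass in SCI against naive, and 4 fell, 3 rose and 6 did not pass in sham against naive. These shares are near those of all genes tested, of which 48.5% were called in SCI and 50.6% in sham, in the fit on all 9 libraries. Fitting only SCI and naive called 10 of the 13 in place of 6. That fit also called the enzymes Fdft1 and Lss, so its added calls were not confined to the control genes. The 48.5% of all genes is not a share from that fit. Whether the control genes gained more calls there than genes at large was not tested. Srebf2, the sterol-sensing transcription factor, stood at 155 ± 5.74 CPM in SCI, 153 ± 10.5 CPM in sham and 218 ± 7.72 CPM in naive. Its log2 changes from naive were -0.49 in SCI (edgeR adjusted p = 7.48e-05) and -0.51 in sham (4.44e-05). Mbtps2, a protease that frees the factor from the membrane, fell by 0.71 and 0.88. Srebf1, which mainly drives fatty acid synthesis, had log2 changes of 0.30 in SCI and 0.21 in sham, and the sham call was lost without SCI 1, SCI 3, sham 3 or any 1 naive library (adjusted p from 0.0523 to 0.121).

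Known targets of the Srebf2 factor outside the pathway did not all pass. Stard4, a sterol carrier, fell by 0.35 on the log2 scale in SCI and by 0.46 in sham. Insig1, which retains the factor in the endoplasmic reticulum, averaged 238 ± 4.81 CPM in SCI, 250 ± 17.9 CPM in sham and 264 ± 3.88 CPM in naive. Its log2 changes of -0.15 and -0.08 did not pass, though that of SCI did without sham 1 or sham 3 (adjusted p = 0.0333 and 0.0233). Nr1h2, a sterol-sensing nuclear receptor, rose by 0.41 in SCI and 0.47 in sham.

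Of 16 genes of cholesterol transport and turnover, 8 fell and 5 rose in SCI against naive, and 7 fell and 3 rose in sham against naive, where 48.5% and 50.6% of all genes tested were called in either direction. Abca1, the cholesterol exporter, stood at 64.0 ± 4.92 CPM in SCI, 58.1 ± 9.61 CPM in sham and 129 ± 10.8 CPM in naive, with log2 changes of -1.01 (edgeR adjusted p = 8.06e-06) and -1.16 (2.65e-06). Lrp1, a lipoprotein receptor, Npc1, which moves cholesterol out of lysosomes, and Osbp, an oxysterol binding protein, fell as well, by 1.01, 0.63 and 0.52 in SCI. Of 11 genes of fatty acid synthesis 5 fell and 2 rose in SCI, and 5 fell and 1 rose in sham, beside the same shares of all genes, to which the sham count is close. Fasn, fatty acid synthase, fell to 348 ± 11.7 CPM in SCI and 333 ± 26.6 CPM in sham, against 607 ± 12.8 CPM in naive, and Acaca, which feeds it, fell by 0.66 and 0.69 on the log2 scale. Fads2, a fatty acid desaturase, rose by 0.50 and 0.46.

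Genes of the myelin sheath, the cholesterol-rich wrapping of axons, were mostly lower as well. Of 18 genes of Schwann cell myelin 15 were called lower and 1 higher in both comparisons with naive, where 24.6% (SCI) and 25.9% (sham) of all genes tested were called lower. The median log2 changes were -0.56 in SCI and -0.68 in sham. Their summed level ran from 20839 to 25150 CPM in SCI, from 19157 to 23974 CPM in sham and from 32636 to 34420 CPM in naive. Mbp, a major myelin protein, averaged 4259 ± 757 CPM in SCI, 4021 ± 1133 CPM in sham and 4412 ± 160 CPM in naive and did not pass (without sham 3 its log2 change in sham was -0.37, adjusted p = 0.0179).

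Of 11 satellite glia markers 6 were called higher and 1 lower in SCI against naive, and 6 higher and 2 lower in sham against naive, where 23.9% and 24.7% of all genes tested were called higher. Their summed level was 10574 to 11460 CPM in SCI, 9812 to 12994 CPM in sham and 6548 to 6777 CPM in naive. Most of that sum was Apoe, the lipid carrier that is also among the transport genes, at 6667 CPM in SCI, 6946 CPM in sham and 3390 CPM in naive on average. Apoe rose by 0.98 on the log2 scale in SCI and 1.03 in sham. The oligodendrocyte markers, of which 4 of 7 had enough counts to be tested, summed to 16.3 to 17.9 CPM in SCI, 13.0 to 19.8 CPM in sham and 20.3 to 23.0 CPM in naive. The adipocyte markers, of which 8 of 9 were tested, summed to 44.4 to 51.1 CPM in SCI, 33.7 to 60.9 CPM in sham and 48.7 to 79.4 CPM in naive. The 8 fibroblast markers summed to 3194 to 3964 CPM in SCI, 2731 to 4834 CPM in sham and 4782 to 5551 CPM in naive, with 4 called lower in each comparison, again beside 24.6% and 25.9% of all genes. A list of 24 genes for very large proteins, written after results of these data were known, also moved: all 21 that were tested were called lower in both comparisons, with median log2 changes of -1.22 in SCI and -1.32 in sham. The part of these shifts in the change of the enzymes was not tested.

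**Figure D4:**
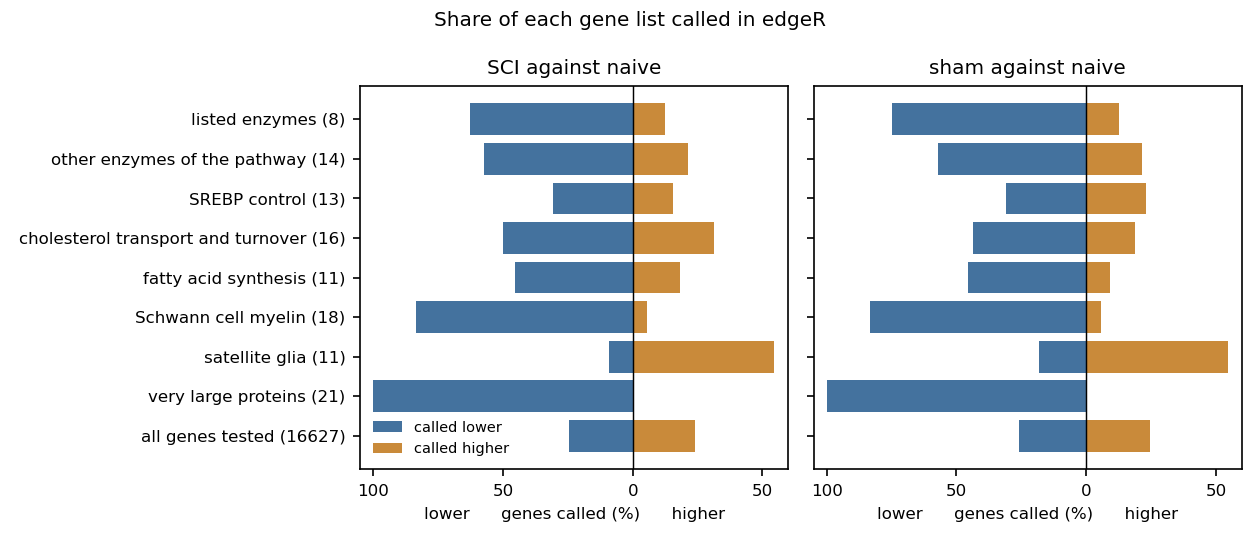
Share of the tested genes of each list called lower (left of 0) or higher (right of 0) by edgeR, in SCI against naive and sham against naive, with the number tested in parentheses and all genes tested at the bottom. The listed enzymes and the other enzymes lean to the lower side, as do the myelin genes, while satellite glia markers lean to the higher side.

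The 8 enzymes did not follow 1 common profile. Their mean profile over the 9 libraries, in log2 CPM centred on each gene's mean, was followed most closely by Cyp51, at a root mean square difference of 0.0362, then by Dhcr7, Sqle, Lss and Fdft1 at 0.0558 to 0.0775. Hmgcs1, Idi1 and Fdps lay farther away, at 0.179, 0.198 and 0.254. The mean profile includes each of the 8 itself. Genes with no symbol, or with a placeholder symbol such as LOC or RGD, were left out of the search for other genes near it. Of the rest, 13 lay nearer to the mean profile than Cyp51 and 7532 nearer than Fdps. The 5 nearest of them were Bfar, Nsmaf, Mmgt1, Ahcyl1 and Mcart1, at 0.0227 to 0.0318. Their log2 changes from naive were -0.28 to -0.25 in SCI and -0.27 to -0.24 in sham. Since most of the profile is the gap between naive and the operated groups, and 24.6% of all genes tested were called lower in SCI, this likeness is a description only.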

How the data were processed

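Whole-number counts of reads per gene were deposited for 9 libraries, not normalized. Per the labels' protocols, an RNeasy kit gave the RNA and a TruSeq V2 kit the libraries, read from both ends. That kit marks no strand, so reads of overlapping antisense genes cannot be told apart. FastQC, Trimmomatic, TopHat2, HTSeq and DESeq2 are named in the submitters' processing notes; neither their versions nor the genome build used is given in the sources used here.

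Groups came from the sample titles. EdgeR (version 4.0.16, R 4.3.3) was run on the counts with TMM factors, filterByExpr at its defaults and 1 mean per group over all 9 libraries, with Benjamini-Hochberg adjustment over 16627 genes and calls at an adjusted p under 0.05. Standard errors come from the quasi-likelihood F statistic, intervals are at 95% and unadjusted, and a prior count of 2 went into log2 CPM. All 9 count columns were used. Of 180 list entries (Apoe stands in 2 lists), 174 matched and 170 were tested; of a further list of 24 genes for very large proteins, added later, 21 were tested.

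The genes, lists and tests were chosen with earlier results of these data known. Beside the 8 enzymes, any tested gene of the other enzymes and of the control list could be named, the 4 with the smallest p in SCI against naive of the transport and fatty acid lists, up to 3 of each marker list by mean CPM, and the 5 nearest profiles. Some genes counted within the lists are not reported here by name. No coding lengths were used here, so levels of different genes are not compared, and protein sequences were not analysed here. The edgeR test and the profile distance were checked on simulated data, and the motif search on short made-up sequences. Alternatives were DESeq2 (version 1.42.0), limma-voom (version 3.58.1), scaling by RLE or upper quartile, a stricter filter (mean of 10 CPM) or none, fits on 2 groups alone, a block for the replicate number, and each library left out. Libraries of a group differed by more than sampling noise, and most in sham. The chi-square per degree of freedom was 3.15 to 8.00 in SCI, 13.3 to 41.8 in sham and 3.80 to 5.11 in naive.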

Additional observations from a re-analysis of the deposited data

How the results depend on the processing

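Of the 8 enzymes, 0 were called between SCI and sham under any of the 17 alternatives. Between SCI and naive 5 to 8 were called, and between sham and naive 6 to 8, with medians of the 8 log2 changes from -0.26 to -0.23 and from -0.28 to -0.20. These counts stand without the number of all genes called under each alternative. Whether they follow that number was not tested, so their range is not a finding about the enzymes alone. Hmgcs1, Idi1, Sqle, Cyp51 and Dhcr7 kept their call in both comparisons with naive under all 17. The labels do not say that replicate numbers pair the libraries, and the deviations of same-numbered libraries correlated at -0.0946 to 0.124. With the replicate block 5 enzymes were called between SCI and naive (Fdps was lost, adjusted p = 0.0612), 7 between sham and naive and 0 between SCI and sham. Over all genes, SCI against sham gave 8 calls with DESeq2, 11 without a filter and 22 without sham 3, against 0. With only the groups compared, 10 control genes were called between SCI and naive, against 6. The number of all genes called in that fit is not set beside this, so a general rise in calls was not separated from it. Fdft1 and Lss were called there as well, so the added calls were not confined to the control genes.

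The signs that turned belong to changes that had not passed. With each library left out in turn, the SCI against sham log2 change ran from -0.051 to 0.036 for Hmgcs1, from -0.12 to 0.057 for Idi1, from -0.076 to 0.062 for Sqle, from -0.052 to 0.071 for Lss, from -0.069 to 0.014 for Cyp51 and from -0.040 to 0.011 for Dhcr7. Against naive it ran from -0.125 to 0.039 in SCI and from -0.0996 to 0.070 in sham for Insig2, and from -0.21 to 0.031 in SCI and from -0.37 to 0.020 in sham for Mbp. The cause was not tested. No scaling moved the median of all genes by over 0.1.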
